A study of Mus musculus with 14 samples.

Results

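The genes described here encode the ATP-binding cassette (ABC) transporters of the A, B, C, D and G subfamilies and the organic anion transporting polypeptides (Slco family) of the mouse. They were chosen by symbol: every protein-coding gene on an autosome or the X chromosome of the mm9 (NCBIM37) annotation whose symbol starts with Abca, Abcb, Abcc, Abcd, Abcg or Slco. This gave 61 of 22350 such genes. A region was a merged set of DNase-hypersensitive peaks of the 14 libraries that shared at least 1 bp. A region was linked to a gene when it overlapped the gene body or lay within 10 kb upstream of its start. Of 48148 regions, 34043 were linked to some protein-coding gene and 193 to a transporter gene, and 47 of the 61 genes had at least 1 region.

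ABC transporters use ATP to move substrates across a membrane, and in hepatocytes the canalicular members secrete bile acids, phospholipid, sterols and conjugates into bile. The Slco proteins take up bile acids, bilirubin conjugates, hormones and drugs from sinusoidal blood, while basolateral ABC proteins return conjugates to blood. Growth hormone (GH) from the pituitary acts on hepatocytes through its receptor, JAK2 and the transcription factor STAT5, and its sex-dependent secretion pattern sets sex differences of many liver genes. DNase-seq sequences fragments released where nuclease can cut, so a peak marks accessible chromatin and does not measure transcription.

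All mice were CD-1 (ICR) aged 7 weeks, and each library was a pool of 3 livers, except 1 pool of 2. Pituitary-intact females gave 4 libraries. Mice hypophysectomized by the supplier (hypox, without pituitary, so without their own GH and other pituitary hormones) gave 2 libraries of untreated females, 2 of untreated males, and 2 each of males killed 30, 90 and 240 min after a single intraperitoneal injection of recombinant rat GH at 125 ng per gram body weight. Whether the untreated hypox males had received vehicle was not clear from the labels. Intact female pools 1 and 2, both hypox female pools and all GH pools carried the code G92, intact female pools 3 and 4 carried G93, and both untreated hypox male pools carried G103. GH treatment and code therefore cannot be told apart in the comparisons with untreated hypox males, nor can sex and code among hypox mice, and intact males were not analysed here.

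Sequences of 200 bp around the summit, the position of highest pileup, are given for 7 regions that hold TTCNNNGAA, the palindrome recognised by STAT factors. The first 5 are all transporter regions with such a match among those called in both libraries at 30 or at 90 min after GH and in neither untreated hypox male library. The last 2 are examples from the 4 regions with a match among those called in all 14 libraries, and all are on the plus strand of mm9, from the reference genome, with the match in capitals.
Abca8b chr11:109855331-109855530: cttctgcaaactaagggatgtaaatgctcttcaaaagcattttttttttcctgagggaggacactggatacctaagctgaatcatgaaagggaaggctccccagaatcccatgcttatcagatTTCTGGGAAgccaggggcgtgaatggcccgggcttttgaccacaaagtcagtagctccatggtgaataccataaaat
Abca8a chr11:109933621-109933820: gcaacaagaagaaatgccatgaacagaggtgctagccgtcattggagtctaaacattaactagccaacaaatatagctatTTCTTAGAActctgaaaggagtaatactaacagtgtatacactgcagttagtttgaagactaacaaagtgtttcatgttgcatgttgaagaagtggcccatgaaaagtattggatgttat
Abca4 chr3:121736992-121737191: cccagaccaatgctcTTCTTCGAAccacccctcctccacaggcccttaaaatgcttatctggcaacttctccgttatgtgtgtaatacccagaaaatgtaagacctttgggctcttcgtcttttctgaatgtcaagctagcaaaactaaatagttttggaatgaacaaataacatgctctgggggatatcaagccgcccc
Abca1 chr4:53131535-53131734: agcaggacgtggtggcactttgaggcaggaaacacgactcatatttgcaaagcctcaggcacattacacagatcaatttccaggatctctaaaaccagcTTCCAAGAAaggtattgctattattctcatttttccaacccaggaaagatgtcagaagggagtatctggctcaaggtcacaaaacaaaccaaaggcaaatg
Abcc9 chr6:142656835-142657034: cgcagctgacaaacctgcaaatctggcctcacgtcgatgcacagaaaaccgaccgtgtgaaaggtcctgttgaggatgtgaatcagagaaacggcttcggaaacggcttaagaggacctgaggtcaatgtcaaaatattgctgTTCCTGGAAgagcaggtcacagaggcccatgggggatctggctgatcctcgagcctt
Slco1a1 chr6:141896210-141896409: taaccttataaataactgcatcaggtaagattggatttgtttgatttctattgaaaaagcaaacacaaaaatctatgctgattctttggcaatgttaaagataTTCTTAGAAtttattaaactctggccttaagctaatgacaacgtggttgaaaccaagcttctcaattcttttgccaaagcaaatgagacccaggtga
Abcb4 chr5:8928620-8928819: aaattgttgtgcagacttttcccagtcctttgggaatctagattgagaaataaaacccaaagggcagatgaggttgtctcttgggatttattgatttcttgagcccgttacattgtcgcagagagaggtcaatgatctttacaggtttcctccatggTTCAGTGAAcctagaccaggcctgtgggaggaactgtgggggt
The match lay 1 bp from the summit in Abca1 and 3 bp from it in Slco1a1, and 85 bp away in Abca4. The same palindrome was present near the summit of 17 of the 193 transporter regions (8.81%), against 8.57% of all linked regions. Of the 13 transporter regions called in both libraries at 30 or at 90 min after GH and in neither untreated hypox male library, 5 held it (38.5%), against 43% of the 1513 linked regions of that kind. None of the 22 regions called in both untreated hypox male libraries and in neither library at 30 or at 90 min held it, against 3.04% of 2596 linked regions. Both strands were searched, a match does not show binding, and the shares of transporter regions rest on few regions.

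Depth ran from 13078268 tags (intact female pool 3) to 33700120 (hypox male pool 2), and peak lists from 17691 to 35851 peaks. Peaks on the Y chromosome numbered 1 to 3 in female libraries and 63 to 91 in male libraries. Transporter regions called per library ranged from 69 (GH 240 min pool 2) to 127 (intact female pool 4), and the GH 240 min pools differed most within a group of 2, with 114 and 69. Intact female pool 3 stood apart at promoters: it called 18 of the 47 transporter regions within 1 kb of an annotated transcript start, against 25 to 38 in the other libraries. Of the 14 transporter regions called in 13 libraries, 10 were missing from that pool alone, 8 of them at promoters. For intact against hypox females, the counts of regions called on one side and of constitutive regions are given below also without it. A missing call means that no peak passed the authors' threshold at that depth, and in bulk liver a lower signal per cell and fewer cells with the signal cannot be told apart.

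By role, all 8 canalicular export genes had a region, and 5 had a region called in all 14 libraries. The same held for 4 and 3 of 5 basolateral export genes, 8 and 4 of 15 Slco genes, 14 and 6 of 17 lipid and A subfamily genes, 5 and 2 of 5 peroxisome and lysosome genes, 4 and 1 of 4 mitochondrial and heme genes, and 4 and 1 of 7 others. Among all protein-coding genes, 62.6% had a region and 22.4% a region in all libraries, against 77% and 36.1% of the transporter genes. No region was called for Abca12, Abca13, Abca15, Abcb5, Abcc1, Abcc8, Abcg4, Slco1a5, Slco1a6, Slco4c1, Slco5a1, Slco6b1, Slco6c1 or Slco6d1. Over gene and region pairs, 119 lay in introns, 49 within 1 kb of a transcript start, 26 farther upstream, 5 in untranslated and 3 in coding exon sequence, and 9 regions were linked to a pair of transporter genes. Of the 193 regions, 33 were called in all libraries (17.1%, against 15.9% of linked regions) and 45 in a single library (23.3%, against 21.3%). An intronic region is assigned by position, and which gene it acts on was not measured.

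Among regions called in all libraries, here called constitutive, the 2 strongest lay in introns of a basolateral and an uptake gene. Strength is given as fold enrichment, the authors' peak value over the local background of the same library, used here only to describe. An intronic region 38.5 kb into Abcc4, an exporter of nucleotides and bile acids, had the highest mean fold, 15.4 ± 3.24 (SD, n = 14; chr14:119066580-119067331). It was followed by a region 11.4 kb into Slco1b2, the main hepatocyte uptake carrier of this family, at 15.2 ± 1.73 (chr6:141588966-141589911). Next came the promoter of the mitochondrial transporter gene Abcb8 at 12.9 ± 2.1, which also lies near the start of Atg9b, an intron of Abcc3 at 12.1 ± 1.56, and the promoter of Abcb11 at 12 ± 1.89. The list of 10 closed with an intron of Abcb4 at 11.6 ± 2.19, an intron of Abcc12 at 10.4 ± 3.08, an internal transcript start of Abcc2 at 10.4 ± 1.88, and a pair of regions at Abcg5 and Abcg8 at 9.98 ± 1.76 and 9.84 ± 3.12. Outside this set, the promoter of the lysosomal peptide transporter gene Abcb9 reached 12.5 ± 1.99 in 13 libraries and was missing only from intact female pool 3.

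Levels are compared as scaled pileup, the authors' number of extended tags stacked at the summit, per 1000000 tags of the library.

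**Figure D1:**
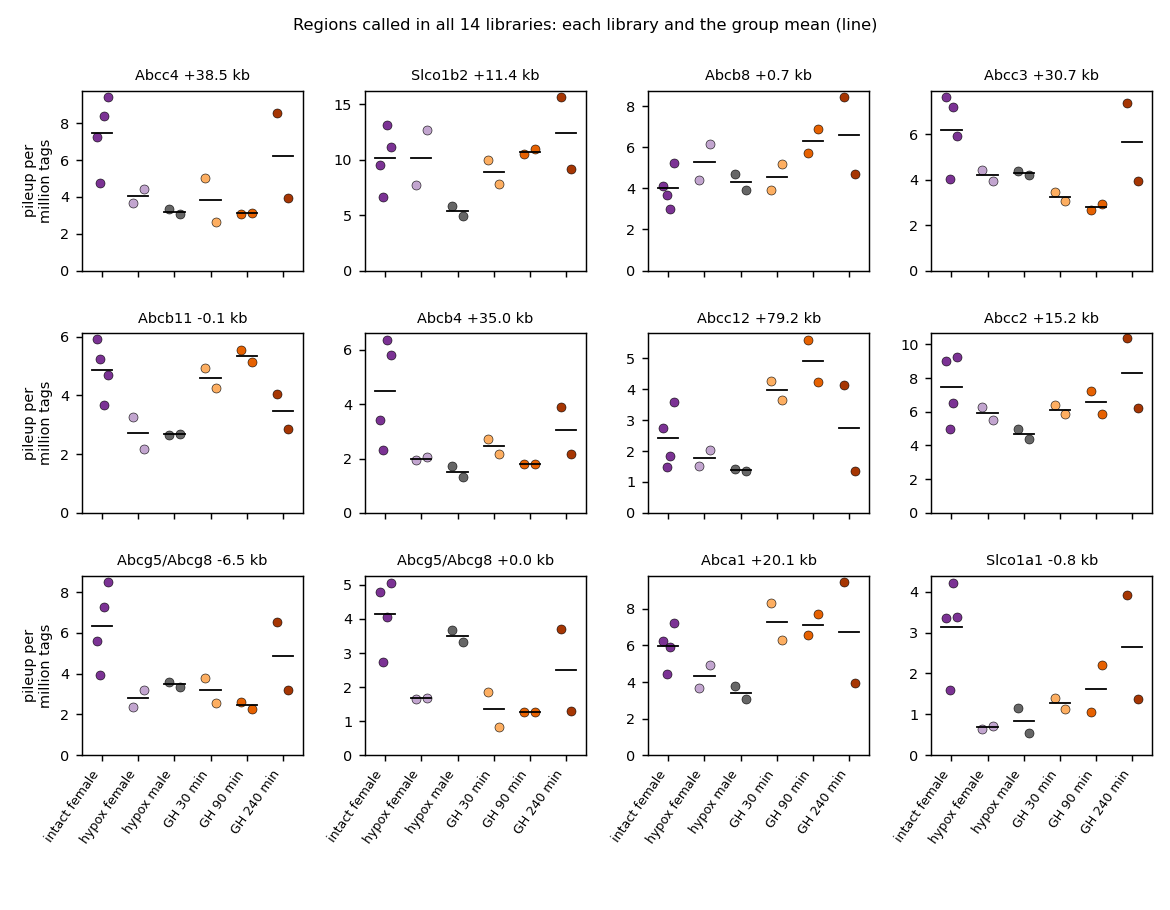
Scaled pileup (y axis, linear, from 0) of 12 transporter regions called in all 14 libraries: the 11 with the highest mean fold and the one with the highest ratio of intact to hypox females (Slco1a1). Points are libraries, lines are group means, and titles give the distance of the summit from the gene start; the Slco1a1 promoter was at 0.652 and 0.721 in hypox females and at 1.6 to 4.21 in intact females.

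At the canalicular bile salt export pump gene Abcb11, the promoter region (summit 0.1 kb upstream, chr2:69180499-69181245) had scaled pileups of 5.92, 5.22, 3.67 and 4.69 in intact females and 3.26 and 2.16 in hypox females. Hypox males gave 2.64 and 2.7, GH at 30 min 4.94 and 4.24, at 90 min 5.53 and 5.15, and at 240 min 4.05 and 2.87. Every intact and every GH library was above the untreated hypox male libraries, and GH pool 2 at 240 min overlapped the hypox females. The remaining 4 Abcb11 regions were each called in a single library.

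The phospholipid flippase gene Abcb4 had its strongest region 35 kb into the gene, which is also among the sequences shown. Its scaled pileups were 3.41, 2.32, 6.35 and 5.8 in intact females, 1.96 and 2.04 in hypox females, and 1.72 and 1.31 in hypox males. GH gave 2.73 and 2.15 at 30 min, 1.8 and 1.81 at 90 min, and 3.91 and 2.18 at 240 min, each above both hypox male values. All 4 intact values were above both hypox female values and overlapped the GH range, and intact pools 3 and 4 were the highest of the 14 libraries.

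Abcc2, the exporter of bilirubin glucuronides, had 9 regions, and 4 were called in all libraries. At its internal transcript start 15.2 kb into the gene (chr19:43871608-43872170), scaled pileups were 4.99 to 9.28 in intact females, 6.3 and 5.53 in hypox females and 4.99 and 4.36 in hypox males. The intact and hypox female values overlapped there, and all GH values, from 5.86 to 10.4, were above both hypox male values. A region 31.3 kb into the gene was at 3.17, 1.96, 3.67 and 4.08 in intact females and at 1.09 and 1.26 in hypox females, without overlap. It was at 0.932 and 0.803 at 90 min after GH, below both hypox males at 1.66 and 0.979.

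Abcg5 and Abcg8, which pair to secrete sterols into bile, lie head to head and share their start region (chr17:85082107-85082955). Its scaled pileups were 4.79, 2.73, 4.05 and 5.06 in intact females, 1.67 and 1.68 in hypox females, and 3.67 and 3.32 in hypox males. After GH it was 1.87 and 0.837 at 30 min, 1.28 and 1.27 at 90 min, and 3.69 and 1.3 at 240 min. The 30 and 90 min values were all below the hypox male values, by ratios of means of 0.387 and 0.365, and the 240 min pools fell on either side. A second shared region inside Abcg8 was at 5.62, 3.92, 7.26 and 8.49 in intact females and at 2.39 and 3.18 in hypox females, again without overlap.

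The drug exporters were weakly accessible. Abcb1a, a P-glycoprotein gene, had 6 regions, none in more than 6 libraries, and its neighbour Abcb1b had 1 region in 1 library. Abcg2, the breast cancer resistance protein gene, had 6 regions, of which only that at an internal transcript start 56 kb into the gene was frequent, with 10 libraries and scaled pileups of 0.772 to 1.22. Uniquely mapped reads were used, per the file headers, so reads that match both of the closely related Abcb1a and Abcb1b do not count for either.

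Among basolateral exporters, Abcc3, which returns glucuronides to blood, had 3 intronic regions called in all libraries, each with lower values at 30 min after GH. At 30.7 kb from the start (chr11:94223039-94223948) scaled pileups were 4.36 and 4.21 in hypox males, 3.47 and 3.05 at 30 min and 2.68 and 2.94 at 90 min. At 3.7 kb they were 5.51 and 3.53, then 3 and 2.99, then 1.92 and 3.01. At 45.7 kb they were 5.63 and 2.7, then 2 and 1.91, then 1.86 and 2.81. All 3 were below both hypox male values at 30 min, and the first 2 also at 90 min. GH 240 min pool 1 was back within or above the hypox male range at all 3, and pool 2 was below it. Divided by the library median over constitutive regions, the regions at 3.7 and 45.7 kb were below both hypox male values in both 240 min pools. The strongest Abcc4 region differed otherwise: 7.24, 4.75, 8.41 and 9.42 in intact females against 3.7 and 4.44 in hypox females, 3.33 and 3.06 in hypox males and 8.54 and 3.96 at 240 min. Abcc6, mutated in a mineralization disorder, had 4 regions, and the 1 called in all libraries was at 2.58 and 2.2 in hypox males, 1.67 and 1.14 at 30 min and 0.932 and 1.4 at 90 min.

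The uptake carrier Slco1a1, which in mouse liver is known to be higher in males and to depend on GH, showed the highest ratio of intact to hypox females among the 33 constitutive regions. Its promoter region (summit 0.8 kb upstream, chr6:141895995-141896626) had scaled pileups of 3.35, 1.6, 4.21 and 3.39 in intact females and 0.652 and 0.721 in hypox females, a ratio of means of 4.57. Hypox males were at 1.15 and 0.534, GH males at 1.4 and 1.14, 1.05 and 2.21, and 3.91 and 1.36 at the successive times. The intact values did not overlap those of either untreated hypox group, and the GH groups overlapped the intact range at 90 and 240 min and the hypox males at 30 and 90 min. Slco1a4, a carrier of steroid conjugates, had a pair of constitutive upstream regions 1.8 and 10 kb from its start that were at 2.55 to 4.92 and 2.67 to 6.08 in intact females against 1.38 to 2.1 and 2.28 to 2.39 in hypox females.

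Slco1b2 differed from these. Its strongest region was at 9.51, 6.65, 13.1 and 11.1 in intact females and 7.68 and 12.7 in hypox females, which overlapped. It was at 5.86 and 4.93 in hypox males, 9.94 and 7.77 at 30 min, 10.5 and 10.9 at 90 min and 15.6 and 9.14 at 240 min, so every GH value exceeded both hypox male values. Its promoter stayed between 0.837 and 2.16 in all libraries. Slco2b1 had a constitutive internal transcript start at 2.08 to 3.76 in intact and 1.45 and 1.62 in hypox females.

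Abca1, which loads cholesterol onto apolipoprotein A-I, had the most regions of any transporter gene, 18 over 129.1 kb. The intronic region 20.1 kb from its start (chr4:53152125-53152996), the only one in all libraries, was at 3.79 and 3.06 in hypox males. After GH it was at 8.34 and 6.27 at 30 min, 6.58 and 7.69 at 90 min and 9.48 and 3.96 at 240 min, all above both. Intact and hypox females overlapped there, with 4.45 to 7.24 and 3.7 and 4.92. The cholesterol exporter gene Abcg1 had 6 regions, none in more than 4 libraries. Abca8a, in the Abca5 to Abca9 cluster of chromosome 11, had a constitutive region 1.3 kb from its start at 2.76 and 3 in hypox males and 7, 4.54, 6.46 and 7.09 at 30 and 90 min.

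The organelle transporter genes named here had their most often called regions at promoters. The peroxisomal fatty acid transporter genes Abcd2 and Abcd3 had promoter regions in all libraries and the lysosomal cobalamin transporter gene Abcd4 in 11. The Abcd2 promoter was at 4.19, 3.68, 2.52 and 3.76 in intact females and at 1.88 and 2.28 in hypox females, without overlap, and the Abcd3 promoter at 2.02 to 2.91 and 2.46 and 3.24, which overlapped. Of the mitochondrial inner membrane and heme-related genes, the Abcb8 promoter was called in all libraries and the promoters of Abcb6 and Abcb10 in all but intact female pool 3. Abcc12, a C subfamily gene of uncertain function, had an intronic region at 1.44 and 1.36 in hypox males, 4.27 and 3.65 at 30 min and 5.59 and 4.21 at 90 min, the highest ratios of means after GH among the 33 regions (2.83 and 3.5).

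**Figure D2:**
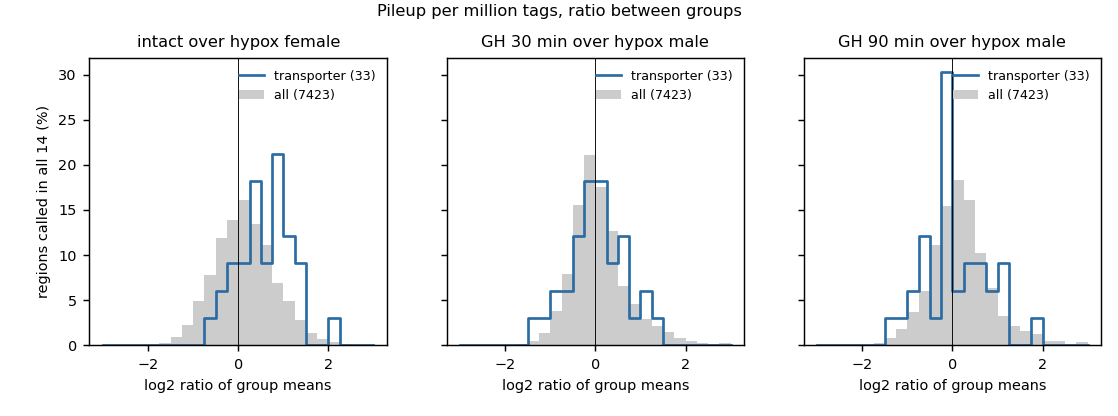
Distribution of log2 ratios of group means of scaled pileup over regions called in all 14 libraries (x axis; y axis, percent of regions). Grey bars are all 7423 regions and the blue line the 33 transporter regions; the transporter line lies to the right in the intact against hypox female panel (median 0.61 against 0.12) and to the left at 90 min after GH (median -0.04 against 0.15).

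Removal of the pituitary in females was examined first. Of the 33 transporter regions called in all libraries, 16 had every intact female value above both hypox female values (48.5%), against 17.6% of all 7423 such regions, and 0 had every value below, against 11.4%. The 16 were regions of Abcb11, Abcb4, 2 of Abcc2, 3 of Abcg5 and Abcg8, 2 of Abcc4, Abcc6, 2 of Slco1a4, Slco1a1, Slco2b1, Abca6 and Abcd2. The median log2 ratio of means was 0.61 for the transporter regions and 0.12 for all. After division by each library's median over the constitutive regions, 13 were higher (17.1% of all), 11 of them among the 16. On that scale 2 were lower (22.7% of all), the Abcc3 region at 45.7 kb and the Abcb8 promoter. Of the 16, the regions of Abcb11 and Abcc6, at the Abcc2 start, upstream of Abcc4 and 10 kb upstream of Slco1a4 overlapped on that scale. Within code G92 alone, 16 were higher (23.2% of all) and 2 lower (17.7%), and without intact female pool 3, 16 were higher (21.9%) and 1 lower (12.3%). Without hypox female pool 1, 17 were higher (20.2%) and 5 lower (31.7%), and without hypox female pool 2, 20 were higher (40.8%) and 0 lower (12.7%). The 4 intact libraries included both codes and the hypox female libraries only G92, and for 4 against 2 pools the smallest exact p (Fisher's test, two-sided) for a region is 0.0667.

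By calls, 9 transporter regions were called in all intact female and in no hypox female libraries, 4.66% against 3.47% of linked regions, and 2 the other way, 1.04% against 0.614%. Regions of Abcb4 and Abca16 were called in the 4 intact libraries and in no hypox library of either sex or treatment. In the authors' combined lists the Abcb4 region was also called at 240 min after GH, and that of Abca16 in intact females only. The Abcb4 region, 44.7 kb into the gene (chr5:8938002-8938526), had scaled pileups of 0.957, 0.712, 1.15 and 0.696, and that at an internal transcript start of Abca16, an A subfamily gene, 0.718, 0.594, 1.68 and 1.02 (chr7:127617971-127618331). The Slco4a1 region at 13.6 kb was at 1.32, 1.01, 0.918 and 3.76 in intact females and in 1 further library, GH 240 min pool 1, and that of Abca8b at 8.2 kb at 0.841 to 0.957 and in 1 hypox male library.

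The remaining regions called in intact and not in hypox females were at Slco2b1, Abcc2, Abcc3, Abca8a, and upstream of Abca8a at the end of Abca9. The Slco2b1 region at 30.5 kb, with the STAT palindrome, was at 1.53 to 2.15 in intact females, and the Abcc2 region at 29.4 kb at 1.42 to 2.37. Pool 1 of each GH time also called the Slco2b1 region. Both hypox male libraries and GH 240 min pool 1 also called the Abcc2 region and the Abcc3 region at 21.8 kb. The Abca8a region 1.7 kb upstream was also called in hypox male pool 2, in 1 library each at 30 and 90 min, and in both at 240 min. The Abca8a to Abca9 region was at 1.85, 1.25, 2.22 and 2.23 in intact females, in neither hypox female library, in 1 of 2 hypox male libraries, and at 1.31 to 3.69 in all 6 GH libraries. It was thus called in every library with GH or a pituitary and in 1 of 4 without either.

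In the other direction stood Abca1 and Abcb6. An intronic Abca1 region 51.5 kb from the start (chr4:53120925-53121491) was called in all 10 hypox libraries and no intact one, at 1.23 and 1.26 in hypox females, 1.15 and 1.48 in hypox males, and 0.887 to 2.53 after GH. It was missing also from the authors' combined list of intact females, which was called on 68187384 tags, whereas the combined lists of the other 5 groups held it. A region 0.7 kb downstream of the Abcb6 start was called in the 4 untreated hypox libraries only, at 1.16, 1.2, 0.861 and 1.13. It was, however, called in the combined lists of 5 of 6 groups, including intact females, and it lies beside the promoter region of the same gene.

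With all 10 hypox libraries against the 4 intact ones, 160 transporter regions could be tested with Fisher's exact test (two-sided), and 0 had an adjusted p (Benjamini-Hochberg over 40725 regions) below 0.05. At an unadjusted exact p below 0.05, 7 were called more often in intact mice (6.22% of linked regions) and 2 in hypox mice (0.688%). The intact mice were all female, and the hypox libraries included untreated and GH-injected males. Sex, GH treatment and code therefore also differed between these sides and cannot be told apart from removal of the pituitary. The lowest exact p, 0.000999, with an adjusted p of 0.0817, was that of the Abca1, Abcb4 and Abca16 regions above, and it is the smallest these numbers allow. Without hypox female pool 2 the count of intact-only regions was 20, without intact female pool 2 it was 15, without intact female pool 3 the counts stayed 9 and 2, and the count of hypox-only regions was 12 without hypox female pool 1 and 4 without pool 2.

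**Figure D3:**
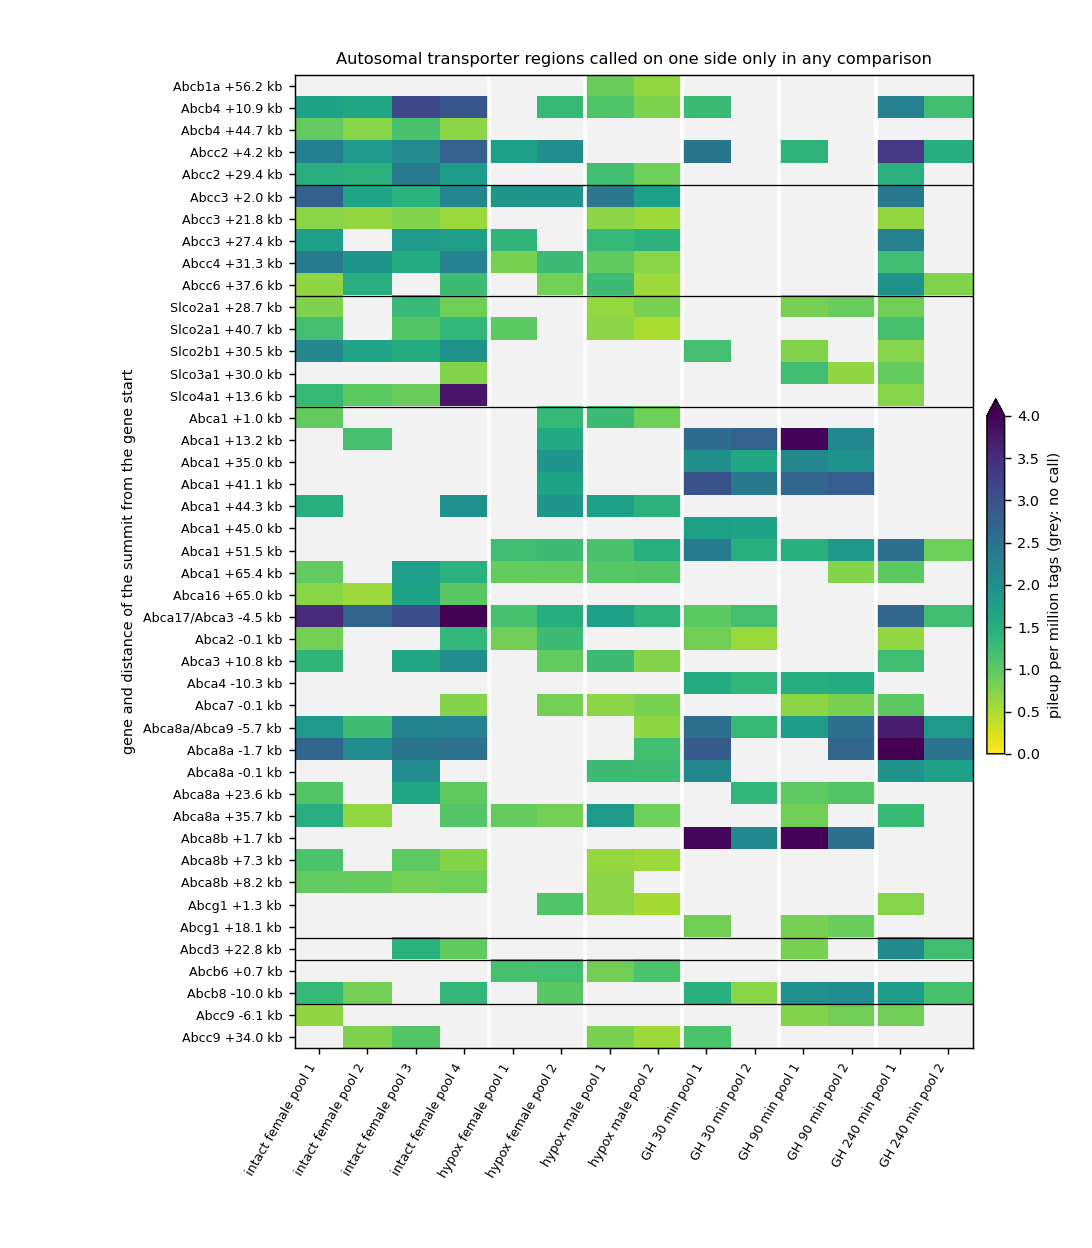
Scaled pileup (colour) of the 44 autosomal transporter regions called in every library of 1 side and no library of the other in any comparison, by library (columns) and gene (rows, with distance of the summit from the gene start; horizontal lines separate roles). Grey cells have no call; the Abca4 and Abca8b regions at 10.3 kb upstream and 1.7 kb are filled at 30 and 90 min after GH only.

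Between the sexes after hypophysectomy, 7 transporter regions were called in both male and in no female libraries (3.63% against 2.98% of linked regions) and 2 in both female and no male libraries (1.04% against 0.388%). The male-side regions were in Abcb1a, Slco2a1, Abcc9, Abca8b, Abcc2, Abcc3 and at the Abca8a promoter. The Abcb1a region at 56.2 kb was called in these 2 libraries only, at 0.918 and 0.653, and none of the 7 exceeded 1.26 in a hypox male library. The female-side regions were the Abca2 promoter at 0.869 and 1.26 and an Abcc2 intron at 1.74 and 2.04. The combined list of hypox males held both female-side regions, and that of hypox females held 1 of the 7 male-side regions. With peak lists of equal length the male-side count was 1 and included 0 of the 7, and both female-side regions remained. Of the constitutive regions, 5 were higher in hypox males without overlap, among them both regions shared by Abcg5 and Abcg8 (7.33% of all), and 12 lower, among them Slco1b2, with 5.86 and 4.93 against 7.68 and 12.7 (27.5% of all). After division by the library median, 9 were higher and 7 lower (23.8% and 20.5% of all). With 2 pools a side the smallest exact p (Fisher's test, two-sided) for a region is 0.333, and sex and code cannot be told apart. The male-side count was 25 without hypox male pool 1 and 19 without hypox female pool 2, and the female-side count 15 without hypox female pool 1 and 5 without pool 2.

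Regions called in untreated hypox males and not after GH are called lost below, and the converse gained. At 30 min 18 regions were called in both untreated and no 30 min library (9.33%, against 5.74% of linked regions), and 9 in both 30 min and no untreated library (4.66% against 3.15%). At 90 min the counts were 18 (9.33% against 5.05%) and 11 (5.7% against 3.48%). At 240 min they were 6 (3.11% against 2.82%) and 3 (1.55% against 1.54%). The comparisons at the 3 times share the same untreated hypox male libraries, so their counts are not independent of each other. However, the combined list of 30 min held 10 of the 18 regions lost at that time. Those of 90 and 240 min held 9 of 18 and 2 of 6 lost regions. The combined list of hypox males held 3 of 9, 4 of 11 and 2 of 3 regions gained at the successive times. Without hypox male pool 1 the lost regions numbered 40 at 30 min, 40 at 90 min and 21 at 240 min. Without the second pool of the GH group the gained regions numbered 16, 23 and 21, and without GH 240 min pool 1 the lost ones at that time 24; without hypox male pool 1 or 2 the gains at 240 min were 6 or 7.

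**Figure D4:**
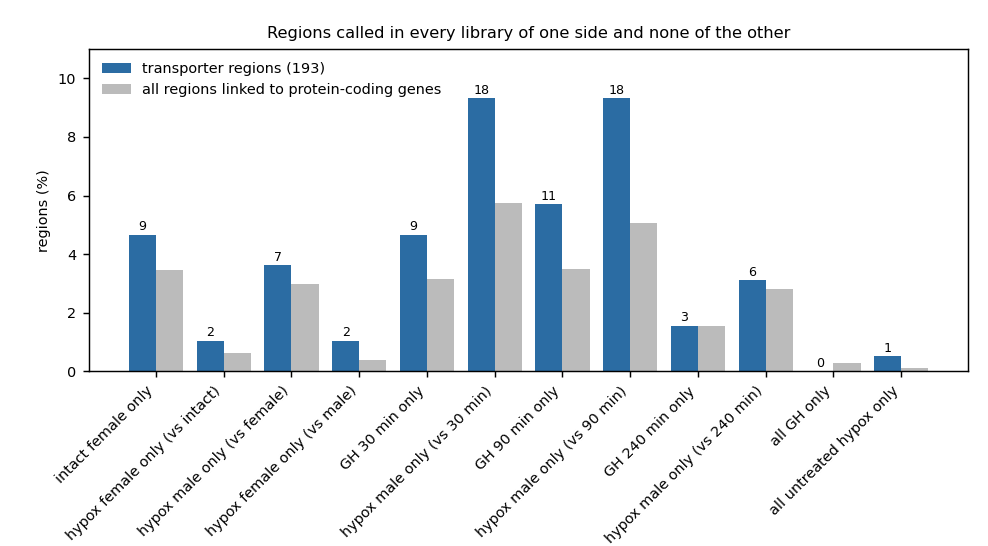
Percent of regions called in every library of 1 side and no library of the other (y axis, from 0), for the 193 transporter regions (blue, with their number) and all regions linked to protein-coding genes (grey), in each comparison. At 30 and 90 min after GH the 18 regions called in untreated hypox males only make up 9.33% of the transporter regions.

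The regions gained at both 30 and 90 min included some in Abca1 and Abca8b and upstream of Abca4 and Abcb8. A region 1.7 kb into Abca8b (chr11:109855221-109855748), whose sequence with the STAT palindrome is shown, was at 3.94 and 2.15 at 30 min and 3.96 and 2.54 at 90 min, and was called in no library of any other group. A region of Abca4, a retinoid lipid transporter gene, with its summit 10.3 kb upstream (chr3:121736900-121737504), was at 1.53, 1.37, 1.51 and 1.54 in the same 4 libraries and in no other. Both regions were thus absent at 240 min and in intact females by library. In the combined lists the Abca4 region was again called at 30 and 90 min only, while that of Abca8b was also called at 240 min and in intact females.

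Within Abca1, 3 intronic regions were called at 30 and 90 min in all 4 libraries and in neither hypox male library. That at 13.2 kb was at 2.6, 2.75, 3.96 and 2.14, that at 35 kb at 2, 1.61, 2.15 and 1.94, and that at 41.1 kb, with the palindrome 1 bp from its summit, at 3, 2.39, 2.68 and 2.81. Hypox female pool 2 also called all 3, at 1.56, 1.92 and 1.68, intact female pool 2 called the first at 1.19, and no library at 240 min called any. The combined lists of hypox males lacked all 3, and those of 240 min held them. Another region, at 45 kb, was called in both 30 min libraries only, at 1.73 and 1.67 (chr4:53127559-53127875).

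At the same gene other regions went the opposite way. A region at 44.3 kb (chr4:53128011-53128590), beside the region at 45 kb, was at 1.72 and 1.42 in hypox males and 1.92 in 1 hypox female library, and was called in none of the 6 GH libraries. A region 1 kb from the start was at 1.26 and 0.89 in hypox males and 1.32 in a hypox female library, and in no GH library. Both were missing from all 3 combined lists of GH groups and present in those of both hypox groups and of intact females. A region at 65.4 kb was lost at 30 min only and was at 1.03 and 1.07 in hypox males. The plot of Abca1 and Abcc3 by library shows both kinds of change along the gene.

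**Figure D5:**
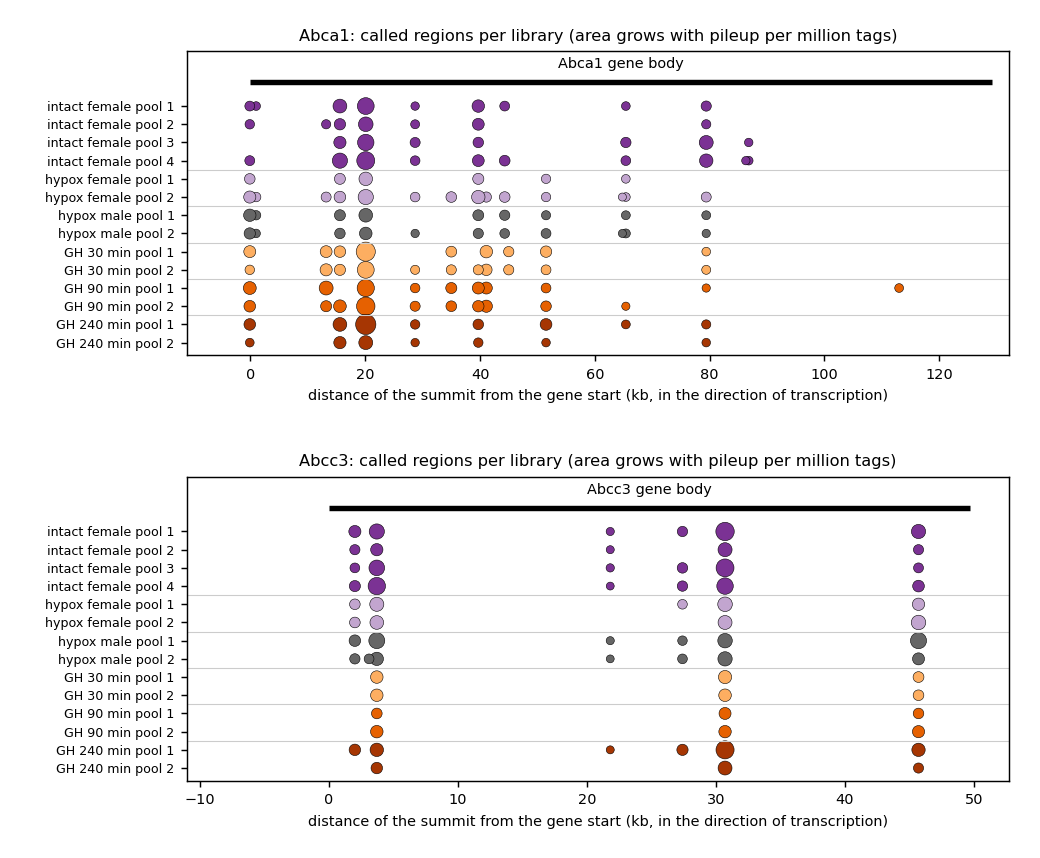
Called regions of Abca1 and Abcc3 in each library (rows), by distance of the summit from the gene start in the direction of transcription (x axis, kb); the area of a point grows with scaled pileup and the bar is the gene body. In Abca1, points at 13.2, 35 and 41.1 kb are present in all 30 and 90 min libraries, and in Abcc3 the points at 2, 21.8 and 27.4 kb are missing from them.

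Abcc3 lost calls along the gene. Regions at 2, 21.8 and 27.4 kb were called in both hypox male libraries, at 2.41 and 1.72, 0.689 and 0.593, and 1.32 and 1.42, and in none of the 4 libraries at 30 and 90 min. All 3 were called again in GH 240 min pool 1, at 2.39, 0.652 and 2.24, and not in pool 2. The region at 2 kb was called in all 4 intact female and all 4 untreated hypox libraries. The combined lists, which have more tags than their own libraries, held it in all 6 groups. Only the region at 27.4 kb was missing from the combined lists of both 30 and 90 min.

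Abcc4 at 31.3 kb (chr14:119073837-119074391) showed the same calls as the Abcc3 region at 2 kb: all 4 intact female and all 4 untreated hypox libraries, at 0.712 to 2.33, and 1 of 6 libraries of GH-injected males, at 1.23. In the combined lists it too was called in all 6 groups. Abcc6 at 37.6 kb was at 1.26 and 0.593 in hypox males, called in no library at 30 and 90 min, and called in both 240 min libraries at 1.95 and 0.75. This Abcc6 region was likewise called in all 6 combined lists. Further regions lost at 30 min were the promoter of Abca7 and the Abcb6 region above, and introns of Abca8a, Abcb1a, Slco2a1, Abcg1, Abca3, Abca8b and Abcc2, all between 0.504 and 1.84 in hypox males. At 90 min the lost regions also included Abca3 at 3.6 kb (1.72 and 1.39 in hypox males), Abcb4 at 10.9 kb (1.09 and 0.772), Abcc9 at 34 kb and the Abca8a promoter.

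Gains at 90 min only were in Abca8a at 23.6 kb and upstream of Abcc9, both with the STAT palindrome, and in Slco3a1 and Abcg1, at 1.22 and 0.669 and at 0.815 and 0.937. At 30 min only, the promoter of Abca2, a lipid transporter gene of brain, was gained at 0.867 and 0.598. The Abca8a region was at 0.99 and 1.07 at 90 min, at 1.37 in 1 of the 30 min libraries, and at 0.974 to 1.61 in 3 intact female libraries. The Abcc9 region, 6.1 kb upstream of this potassium channel subunit gene, was at 0.757 and 0.87 at 90 min, and in 1 library each of intact females (0.658) and of 240 min (0.869). The region 10 kb upstream of Abcb8, which is also linked to Nos3, was the only 1 gained at all 3 times, at 1.47 and 0.717, 1.98 and 2.07, and 1.81 and 1.16, but hypox female pool 2 and 3 intact libraries called it as well. At 240 min the other gains were an Abcc2 intron at 4.2 kb, at 3.33 and 1.5, and Abcd3 at 22.8 kb, at 2.1 and 1.23. This Abcc2 region was also called in all intact and hypox female libraries and in 1 library each at 30 and 90 min. All 6 combined lists held it. That of Abcd3 was also called in intact female pools 3 and 4 and in GH 90 min pool 1. The 6 regions lost at 240 min were those of Abcb1a at 56.2 kb, Abca1 at 44.3 and 1 kb, Abcc9 at 34 kb, Abcb6 at 0.7 kb and Abca8b at 7.3 kb.

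The constitutive regions moved in both directions after GH. At 30 min, 9 of 33 were higher than in hypox males without overlap (27.3%, against 26.5% of all 7423) and 8 lower (24.2%, against 24.2%). At 90 min 11 were higher (33.3% against 38.6%) and 7 lower (21.2% against 20.1%), and at 240 min 12 higher (36.4% against 35.2%) and 1 lower, the Abcd3 promoter (3.03% against 2.56%). These shares were close to those of all constitutive regions. Regions of Abcb11, Abcb4, Abcc2, Slco1b2, Abca1 and the upstream region of Abcc4 were higher at all 3 times, and those of Abcc12, Abca8a and Abca9 at 30 and 90 min. Over all 7423 regions the median log2 ratio at 240 min was 0.44, and after division by the library median it was -0.05. On that scale 10 regions were higher and 11 lower at 30 min (25.4% and 36.2% of all). The counts were 9 and 16 at 90 min (29.9% and 34.7%), and 10 and 9 at 240 min (25.6% and 33%). All 3 Abcc3 regions were lower at 30 and 90 min, and those at 3.7 and 45.7 kb also at 240 min. Of the regions named as higher, that of Abcb11 overlapped the hypox males at 240 min on that scale. Those of Abcb4, at 35 kb, and Abca9 did so at 90 min.

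With all 6 GH libraries against all 4 untreated hypox libraries, 0 transporter regions were called on the GH side only (0.291% of linked regions) and 1 on the untreated side only, that of Abcb6 (0.518% against 0.117%). Without hypox female pool 1 or GH 240 min pool 1 the count on the untreated side was 3, and without hypox female pool 2 or hypox male pool 2 that on the GH side was 1. Of 125 transporter regions tested with Fisher's exact test (two-sided), 0 had an adjusted p below 0.05 over 27104 regions. At an unadjusted exact p below 0.05 there were 2 with more GH calls (1.99% of linked regions) and 5 with more untreated calls (2.08%). The Abcb6 region had an exact p of 0.00476, adjusted 0.618, the smallest these numbers allow. The 2 with more GH calls were the Abca8a to Abca9 region and that upstream of Abcb8, each in 6 of 6 against 1 of 4 libraries (exact p 0.0333, adjusted 1). The others were Abcc3 at 2 kb and Abcc4 at 31.3 kb, in 1 of 6 against 4 of 4 (exact p 0.0476, adjusted 1), and Abca1 at 44.3 and 1 kb, in 0 of 6 against 3 of 4 (exact p 0.0333, adjusted 1). Among constitutive regions 0 of 33 separated the 2 sides in scaled pileup in either direction (3.57% and 0.701% of all). After division by the library median, Abca1 at 20.1 kb was higher after GH (4.38% of all) and Abcc3 at 45.7 kb lower (4.98% of all).

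Counted by gene, 13 of the 47 transporter genes with a region had a region lost at 30 min (27.7%), against 13.9% of the 14000 protein-coding genes with a region, and 15 at 90 min (31.9% against 12.1%). Gains concerned 6 genes at 30 min (12.8% against 7.07%), 9 at 90 min (19.1% against 7.71%) and 3 at 240 min (6.38% against 4.06%), and losses at 240 min 5 (10.6% against 7.21%). In intact females 9 genes had a region not called in hypox females (19.1% against 7.81%). Between hypox males and females the counts were 7 genes (14.9% against 7.59%) and 2 (4.26% against 1.09%). Shares by gene depend on the number of regions per gene, and that part was not tested.

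Other carriers and regulators of hepatocyte transport were counted in the same way. Of 17 annotated genes on a list of other carriers, 15 had a region. At 30 min 3 of the 15 gained a region (20%), with Slc10a1, the sodium taurocholate uptake carrier, called 3.4 kb upstream in the 30 min libraries only, and the copper exporter Atp7b in an intron. At 30 min 1 of the 15 lost a region (6.67%). At 90 min 3 lost 1 (20%), among them the glucose carrier gene Slc2a2 at its promoter, and 1 gained 1 (6.67%). Of 11 regulators of transporter genes, all had regions, and at both 30 and 90 min 4 had a region lost (36.4%) and 2 a region gained (18.2%). Among all genes with a linked region, 13.9% had a loss and 7.07% a gain at 30 min, and 12.1% and 7.71% at 90 min. Nr5a2, a bile acid synthesis regulator, had an intronic region 24.7 kb from its start called in all 4 intact and all 6 GH libraries and in none of the 4 untreated hypox libraries. The same gene gained an intronic region at 5.1 kb at 30 and 90 min, lost intronic regions at 14.2, 30.5 and 111.4 kb at 30 min, and lost its region at 0.8 kb at 30 and 90 min, so its calls went in both directions. An intronic region of Hnf4a was called in the 4 libraries at 30 and 90 min only. The xenobiotic receptor gene Nr1i2 and the fatty acid receptor gene Ppara each had a region lost at all 3 times.

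Markers of the cell types in liver were counted by region. Hepatocyte markers had regions for 7 of 8 genes, 6 with a region in all libraries, endothelial for 7 of 8 with 3, stellate for 5 of 8 with 0, Kupffer for 1 of 8, cholangiocyte for 2 of 6 and lymphocyte for 3 of 8. Among endothelial markers, Stab2 and Tek had regions lost at 30, 90 and 240 min and Clec4g at 90 min. These were 28.6%, 42.9% and 28.6% of the 7 at the successive times, and Stab2 also gained a region at 240 min. Among hepatocyte markers, Apob and Tat had regions lost at 30 min, Tat and Ttr at 90 min (28.6% of the 7 at each time), and 0 genes at 240 min. Of all genes with a linked region, 13.9%, 12.1% and 7.21% had a loss at these times. Reln, a stellate marker, had a region lost at all 3 times, and Pecam1 and Stab2 had regions called in intact and not in hypox females. The summed scaled pileup over the 38 endothelial regions was 15.1 to 16 in hypox males, 12.1 to 13.1 at 30 min, 11.4 to 14.1 at 90 min, 9 to 21.5 at 240 min, 9.85 to 16.5 in hypox females and 17.1 to 32.8 in intact females, and Cdh5 had no region. Over the 12 stellate regions it was 1.39 to 5.28 in hypox males, 0.734 to 1.37 at 30 min and 0.669 to 2.79 at 90 min. Colec11, Des and Lrat had no region. Over the 44 hepatocyte regions the sum was 74 to 82.4 in hypox males, 69 to 82.8 at 30 min and 85.5 to 87 at 90 min. The 10 cholangiocyte regions gave 3.86 to 4.54, 5.14 to 6.93 and 3.81 to 5.88 in the same groups. The 5 lymphocyte regions gave 1.21 to 2.67, 0.837 to 1.47 and 2.21 to 3.44. A region without a call in a library added nothing to its sum, so these sums also depend on the number of calls. The sums over the 193 transporter regions were 160 to 182 in hypox males, 145 to 180 at 30 min, 169 to 184 at 90 min, 133 to 304 at 240 min, 145 to 211 in hypox females and 174 to 314 in intact females. The part of cell composition in the differences at the transporter genes was not tested.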

How the data were processed

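DNase-seq peak lists of 14 pooled liver libraries and 6 combined lists were used. Alignment used Bowtie2 and the mm9 build, according to the labels and per the submitters' processing notes. Per the file headers, MACS2 2.1.0.20150731 made the peaks from uniquely mapped reads, duplicates kept, without a control, with a q-value cutoff of 0.05, with a shift of -100 bp and an extension to 200 bp. The deposited pileup is a signal value at the summit, the deposited fold enrichment a ratio to the local background, and the deposited −log10 p-value and −log10 q-value are those of the peak caller. All are values of called peaks, so a group without a call has no level.

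Here, peaks of the 14 libraries were merged at 1 bp overlap and linked to genes of the GENCODE annotation of NCBIM37. Pileup was scaled to 1000000 tags by the total in each file header (scaled pileup). A region counted for a comparison when called in every library of one side and none of the other, beside the share of all linked regions. Fisher's exact test over libraries used Benjamini-Hochberg adjustment (Python 3.11.15, pandas 2.3.3, numpy 2.4.6, SciPy 1.17.1, pysam 0.24.0), and the calling rule was tested on simulated calls. The pool is the replicate. Short sequences were searched in 200 bp windows, and promoters were positions within 1000 bp of a transcript start.

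The genes, lists and tests were chosen with earlier results of these data known. Genes were named by role, by a region specific to one side (for more than 10, those of highest mean fold), by lack of any region, or by the 10 highest mean folds among regions called in all libraries. Alternatives were a stricter p-value, summits in the middle of a region, lists of equal length, combined lists, code G92 alone, and each library left out. Regions on the Y chromosome were not used. Results of some genes are not reported here.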

Additional observations from a re-analysis of the deposited data

How the results depend on the processing

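The counts of regions called on one side only depended on the processing, 47 alternative values differing from the reported count by more than 1.5 times and 71 not. With the authors' combined list per group, which has 28472456 to 68187384 tags, the counts were 58 in intact and 8 in hypox females, 33 in hypox males and 11 in hypox females, 14 after GH at 30 min and 35 untreated, 20 at 90 min and 34 untreated, 17 at 240 min and 26 untreated, and 3 for all GH and 5 for all untreated hypox libraries. With peaks of −log10 p of at least 10, 1 region was hypox female only against intact, 1 hypox female only against male, 11 were lost at 90 min, 5 gained at 240 min, and 1 and 0 were called for all GH and all untreated. Counts nearer to the reported ones still held few of the same regions there: 2 of 9 were shared among the 6 intact only, 1 of 7 among the 6 hypox male only, and 5 of 18 among the 13 lost at 30 min. With lists of equal length, 1 region was hypox male only against female, 7 were lost at 30 min, 10 lost at 90 min, 7 gained at 240 min, and 1 and 0 called for all GH and all untreated. With a summit required in the middle of the region, the Abcb6 region was no longer called on the untreated side only (0). Within code G92, 1 region was called for all GH only. The cause was not tested. Leaving out each library in turn gave 9 to 20 and 2 to 12 for intact and hypox females, 9 to 25 and 2 to 15 for hypox males and females, 9 to 16 gained and 21 to 40 lost at 30 min, 12 to 23 and 21 to 40 at 90 min, 3 to 21 and 6 to 24 at 240 min, 0 to 1 and 1 to 3 for all GH and all untreated, and 16 to 23 constitutive regions higher in intact females. Most of the highest counts came from groups left with 1 library. Division by the library median was chosen after seeing the data and gave 13 such regions. Pool numbers did not pair the groups (correlations of deviations from -0.103 to 0.0523), and with the pool number as replicate block the counts for all GH and all untreated stayed 0 and 1, with a smallest exact permutation p of 0.01. Depth limits calls to peaks above the threshold in each library.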
